A study of Drosophila melanogaster with 4 samples.

Results

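The 587 regions described here are the stretches of H3K27me3 enrichment that lie outside the assembled chromosome arms of Drosophila melanogaster, on the heterochromatic sequences 2LHet, 2RHet, 3LHet, 3RHet, XHet and YHet and on the unplaced sequence U. They were taken by sequence name from the list of 10507 enriched regions given for the whole series, of which they made up 5.59%. They covered 1.05 Mb of the 19.3 Mb of these 7 sequences, which was 2.25% of the length covered by the whole list. The mark was mapped by chromatin immunoprecipitation and sequencing (ChIP-seq) in nuclei from heads of adult flies of the wild-type strain Oregon-R, labelled as mixed adults, with an Abcam antibody of lot 3. There were 2 ChIP libraries, replicate 1 and replicate 2, and 2 input libraries of unselected chromatin, for which no region list was used here. The flies came from population cages kept on a 22-day cycle, and heads were collected with sieves, so the material is a pool of animals. Heads hold neurons, glia and other cells, so a region is an average over cell types, and the sexes in the material are not given in the labels.

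H3K27me3 is the trimethylated form of lysine 27 on histone H3. It is laid down by the Polycomb complex PRC2, whose catalytic subunit in flies is Enhancer of zeste, and it is best known from long domains over silenced developmental genes such as the Hox clusters. Heterochromatin around the centromeres and on the Y chromosome is packed in another way, with methylation of lysine 9 on the same histone and the protein HP1, and consists largely of transposons and simple repeats. In release 5 of the FlyBase genome, which the file headers name, the parts of it that could be assembled are kept as separate Het sequences named for the arm they belong to. Scaffolds with no known place are strung together as U, so neighbours on U need not be neighbours in the genome. Positions below are 1-based in that release. Members are given by position alone, because a genome and a gene annotation of release 5 were not used here.

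The replicates stood far apart on these sequences. Replicate 2 had 402 regions there, covering 848319 bp, and replicate 1 had 35, covering 74959 bp. Replicate 1 had 4865 regions in all and replicate 2 had 10330, so the gap on the 7 sequences was wider than that between the lists as a whole. Density, width, grouping and score rank are therefore given from each replicate's own list as well. With 2 libraries of 1 condition, an exact two-sided sign-flip test of paired differences cannot give a p below 0.5, and regions of 1 list are not replicates, so no p-values are given. Separate fly collections for the replicates are not mentioned in the labels, so their spread may be technical, and the depth of each library is unknown from the lists.

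Regions were sparse on the heterochromatic sequences and on U. In the whole-series list there were 30.4 regions per Mb on the 7 sequences and 83.0 per Mb on the 5 major arms. The share of length inside regions was 5.41% on the 7 sequences, against 37.9% on the major arms. Chromosome 4, the small chromosome rich in repeats, had 30.3 regions per Mb but 18.1% of its length in regions. In the replicates' own lists the 7 sequences lay below chromosome 4 in density, with 1.81 regions per Mb against 15.5 in replicate 1 and 20.8 against 31.8 in replicate 2. The near-equal density was thus seen in the whole-series list alone and for the pooled 7 sequences. Their pooled share of length was the smaller in all 3 lists. Single sequences differed from the pool. In the whole-series list XHet with 53.9, 3RHet with 42.1 and 3LHet with 36.8 regions per Mb exceeded chromosome 4, and the others lay below it. In replicate 2 only XHet with 39.2 and 3RHet with 34.6 exceeded it. By share of length only 3RHet in replicate 2 did, with 7.97% against 7.82%.

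The sequences differed among themselves. XHet had the highest density in the whole-series list, 53.9 regions per Mb from 11 regions, and 3RHet followed with 42.1 per Mb from 106. 3LHet had 36.8 per Mb from 94 regions and U had 28.7 per Mb from 288. YHet with 23.1, 2RHet with 21.9 and 2LHet with 21.7 per Mb were the lowest, from 8, 72 and 8 regions. Even XHet, the highest of these, lay below the lowest major arm, X, with 68.3 per Mb. The share of length in regions was 9.85% on XHet, 8.37% on 3RHet, 6.67% on 3LHet, 5.41% on YHet, 4.89% on U, 3.74% on 2RHet and 3.41% on 2LHet.

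XHet, 3RHet, 3LHet and U held the first 4 places in replicate 2 as well, while replicate 1 had too few regions to rank the sequences. In replicate 2 the density was 39.2 regions per Mb on XHet, 34.6 on 3RHet, 24.7 on 3LHet, 18.4 on U, 16.3 on 2LHet, 14.9 on 2RHet and 11.5 on YHet. In replicate 1 it was 3.18 on 3RHet, 2.74 on 3LHet, 1.79 on U and 0.608 on 2RHet, with no region on 2LHet, XHet or YHet. Averaged over the replicates, the 7 sequences had 11.3 regions per Mb ± 13.4 (SD, n = 2) and 2.39% ± 2.83 of their length in regions (SD, n = 2). The spread between the replicates was thus larger than the mean itself. In each library the 7 sequences nonetheless lay below every major arm, the lowest of which, X, had 24.4 regions per Mb in replicate 1 and 65.9 in replicate 2.

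**Figure D1:**
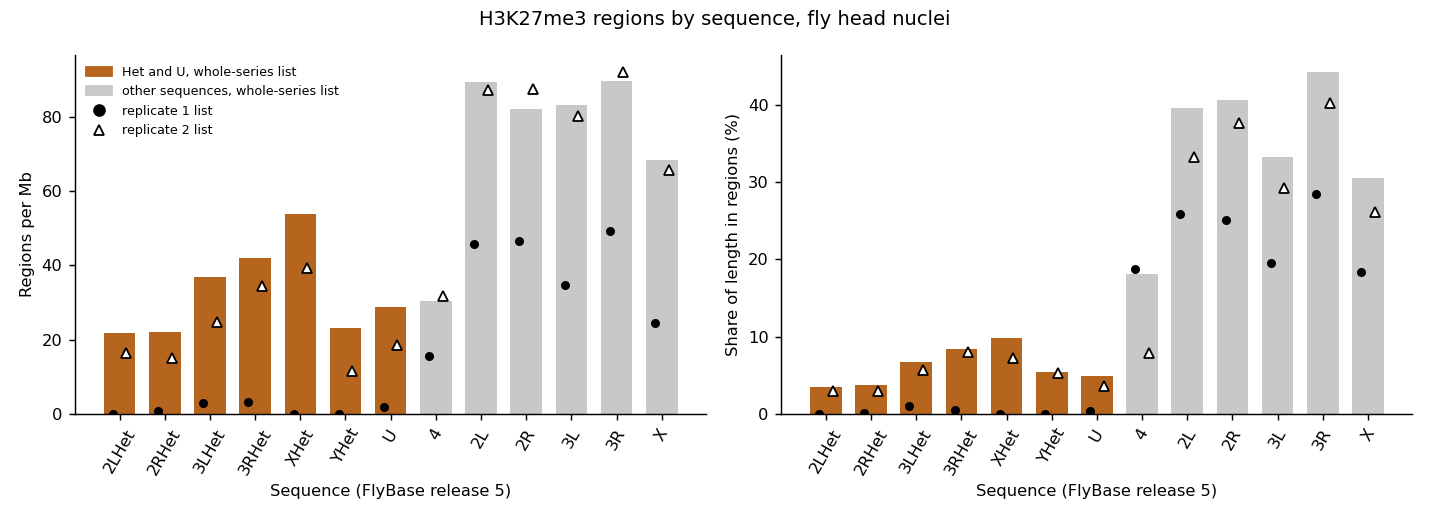
Regions per Mb (left panel) and share of sequence length inside regions in percent (right panel) for the 7 heterochromatic and unplaced sequences, chromosome 4 and the 5 major arms. Bars are the whole-series list, filled circles replicate 1 and open triangles replicate 2. On the 7 sequences the circles lie near 0, at most 3.18 regions per Mb, and the triangles between 11.5 and 39.2.

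Members were narrow. Their median width was 1526 bp, with quartiles at 1191 and 2016 bp, and the widest measured 6928 bp. On the major arms the median was 2006 bp and the widest region spanned 185752 bp. Of the 587 members, 430 (73.3%) were under 2000 bp wide, against a background of 50.9% of all whole-series regions. Only 7 members (1.19%) reached 5000 bp, where 16.5% of all whole-series regions did. No member therefore approached the length of the long domains that the mark forms over Polycomb target genes, and neither replicate had a region over 7141 bp on these sequences.

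Medians per sequence lay close together. They were 1902.5 bp on 3RHet, 1725 bp on YHet, 1703 bp on XHet, 1507.5 bp on U, 1499 bp on 2RHet, 1441 bp on 2LHet and 1439.5 bp on 3LHet. 3RHet also had the smallest share of narrow members among the larger sequences, with 59.4% under 2000 bp against 83.3% on 2RHet, 76.4% on U and 73.4% on 3LHet. Within the replicates' own lists the median on the 7 sequences was 1602 bp in replicate 1 and 1866.5 bp in replicate 2, but both of those lists start at 1301 bp while the whole-series list starts at 1001 bp. Members narrower than any replicate region numbered 196 (33.4%), against 18.6% of all whole-series regions. The smallest width itself, 1001 bp, was held by 38 members (6.47%), against 1.22% of all whole-series regions, and 23 of these 38 lay on U. Neither replicate touched 35 of the 38.

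**Figure D2:**
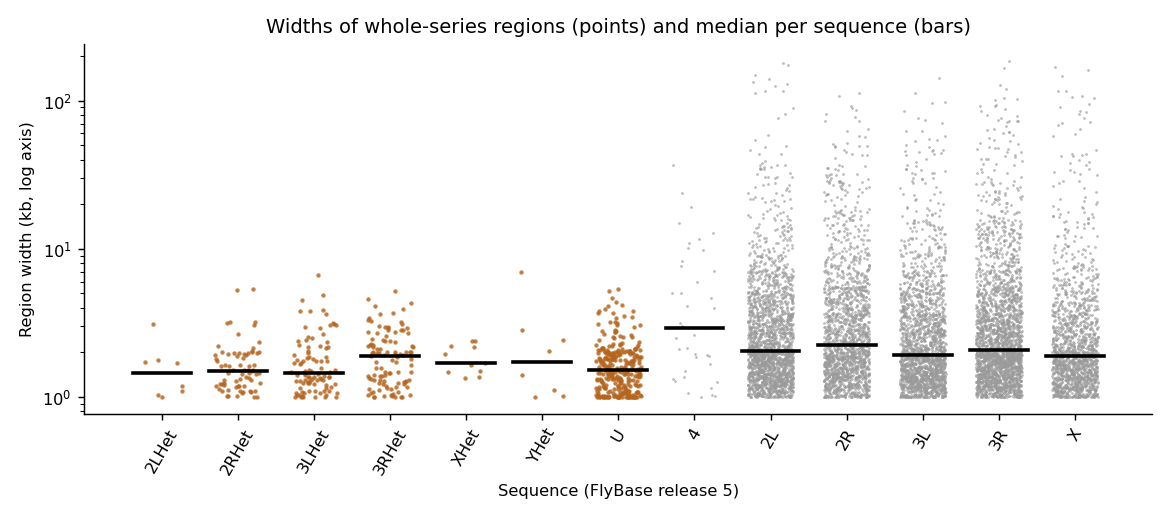
Width in kb on a log axis of each whole-series region (points) and the median per sequence (black bars). The widest member measures 6928 bp, on YHet, and the widest region of the major arms 185752 bp, on 3R.

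The widest member was the region on YHet at 23229 to 30156, 6928 bp wide with a score of 0.83, and replicate 2 covered all of it. Next came 6682 bp on 3LHet at 1412306 to 1418987, also covered whole in replicate 2, and 5384 bp on 2RHet at 2370614 to 2375997, covered to 92.9% in replicate 2. Replicate 1 had no region at any of these 3. On U the widest member, 5322 bp at 108475 to 113796, was covered to 23.2% in replicate 1 and to 32.3% in replicate 2. The next on U, 5222 bp at 6015060 to 6020281, was the only one of the 10 widest that both replicates covered nearly whole, with 94.1% in replicate 1 and 96.7% in replicate 2.

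The other 5 of the 10 widest were 5291 bp on 2RHet at 2931052 to 2936342, 5220 bp on 3RHet at 145275 to 150494, 4868 bp on 3LHet at 2006245 to 2011112, 4632 bp on U at 2549983 to 2554614 and 4569 bp on 3RHet at 20100 to 24668. Replicate 2 touched all 10 of the widest members and replicate 1 touched 3. On the short sequences the widest members were 3102 bp on 2LHet at 190327 to 193428, covered to 93.8% in replicate 2, and 2371 bp on XHet at 99766 to 102136, covered to 84.6% in replicate 2. Scores of the 10 widest ran from 0.45 to 1.10, and 7 of them were in the top 25% of the list.

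Spacing was wide and uneven. The median gap between neighbouring members was 16.6 kb, against 1.55 kb on the major arms. It was shortest on XHet, 4.51 kb, and 3RHet, 7.32 kb, and longest on U, 21.7 kb, where distances between scaffolds are those of the string and not of the genome. The longest stretch without a member was 385 kb on 2RHet, 278 kb on 3LHet, 217 kb on U, 174 kb on YHet, 165 kb on 3RHet, 126 kb on 2LHet and 88.6 kb on XHet. In windows of 100 kb, 8 of 32 on 2RHet held no member, as did 3 of 25 on 3LHet, 2 of 25 on 3RHet and 7 of 100 on U. The fullest windows held 10 members, on 3LHet at 200001 to 300000, on 3RHet at 1 to 100000 and on U at 400001 to 500000.

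Members were less often grouped than regions elsewhere. A group was taken as 2 or more regions with gaps under 5000 bp. With such a fixed limit the share in groups also depends on density. In the whole-series list that was 30.4 regions per Mb on the 7 sequences and 83.0 on the major arms. Of the members, 246 (41.9%) were in 103 groups, against a background of 87.0% of all whole-series regions, and the other 341 stood alone. Most groups were pairs, 84 of 103, and none had more than 7 members. The share in groups was 81.8% on XHet, 64.2% on 3RHet, 62.5% on YHet, 39.4% on 3LHet, 35.1% on U, 33.3% on 2RHet and 25.0% on 2LHet. On chromosome 4, with a similar density in this list, it was 78.0%. The members' share depended on the limit set for a gap. It was 17.7% with gaps under 1000 bp and 60.1% with gaps under 10000 bp, limits without a background here. In the replicates' own lists the share on the 7 sequences was 25.7% in replicate 1 and 38.3% in replicate 2. On all other sequences it was 82.7% in replicate 1 and 86.6% in replicate 2. The short sequences differed most between lists, since on 2LHet 83.3% of the 6 regions of replicate 2 were in groups and on YHet none of its 4 were.

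The largest group was a row of 7 regions at similar distances on XHet, at 88594 to 125339. Their starts followed each other at 6202, 4970, 6273, 5467, 6471 and 6001 bp, a mean of 5897 bp ± 569 (SD over the 6 distances, which come from 1 list). The gaps between these regions were 3505 to 4856 bp. A group holds only gaps under 5000 bp, so the rule itself limits these distances from above, and their regularity was not tested. The 7 regions were 1346 to 2371 bp wide. Their scores were 0.86, 0.87, 0.92, 0.83, 1.02, 1.03 and 0.95 in order along the sequence, all in the top 25% of the whole list. Replicate 2 touched the last 5 of the row with scores of 1.13 to 1.39 on its own scale, and neither replicate list held the first 2. Replicate 1 had no region anywhere on XHet. No member lay in the first 88.6 kb of XHet, before the row. Further along XHet came regions starting at 142892, 159083, 175526 and 181746, the last pair 6220 bp apart. That pair was 2368 and 2206 bp wide with scores of 0.99 and 0.67, and replicate 2 held only the second of the pair. The handling of reads matching several places is not given in the sources used.

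**Figure D3:**
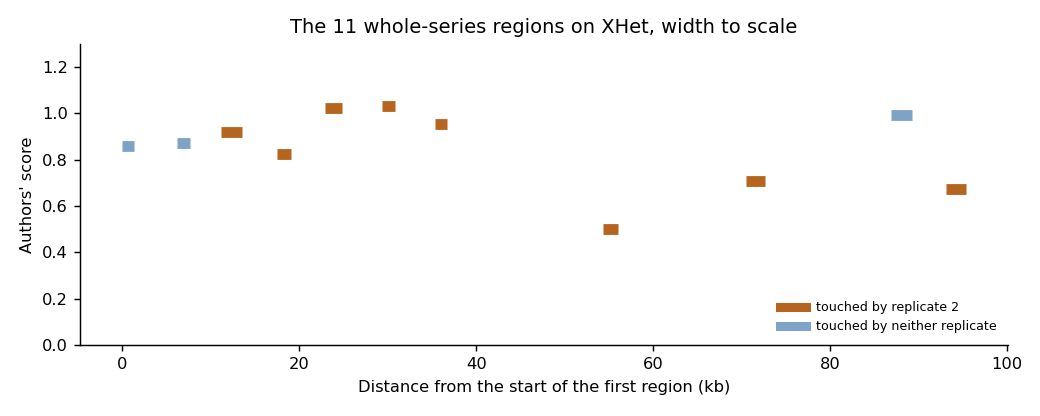
The 11 whole-series regions on XHet drawn to scale, with the distance in kb from the start of the first region on the horizontal axis and the authors' score on the vertical axis. The first 7 follow each other at 4970 to 6471 bp from start to start, with scores of 0.83 to 1.03, and 8 of the 11 are touched by replicate 2.

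The next largest groups, 3 in all, had 6 regions each. On 3RHet, 6 regions lay at 542096 to 568511 and filled 51.4% of 26.4 kb. All of these were touched by replicate 2 and 1 by both replicates. A second group of 6 on 3RHet, at 1650226 to 1675919, filled 50.3% of 25.7 kb, and replicate 2 touched 5 of them. The sixth was the region with the highest score of the whole list, which neither replicate held. On 3LHet, 6 regions at 1483646 to 1504574 filled 46.9% of 20.9 kb, and replicate 2 touched 4. Of the members of these 4 groups, 1 was also touched by replicate 1.

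Scores were high relative to the list. The authors' scores were compared only between regions of the same list, since the sources used do not give their scale. Their form, given further below, was read from the values themselves. The median score of members was 0.70, against 0.46 on the major arms, and 360 members (61.3%, exact Clopper-Pearson 95% interval 57.3% to 65.3%, counting error only) were among the top 25.0% of all scores, a background of 25.0% by construction. In the lowest 25% of scores were 41 members (6.98%, background 25.0%). Members were 5.59% of the list but 13.7% of its top 25%.

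XHet, YHet and U stood above the autosomal Het sequences. The share in the top 25% was 90.9% on XHet (10 of 11), 87.5% on YHet (7 of 8) and 77.1% on U (222 of 288). It was 47.2% on 3RHet, 41.5% on 3LHet, 40.3% on 2RHet and 37.5% on 2LHet (3 of 8). Median scores were 1.20 on YHet, 0.90 on U and 0.87 on XHet, and from 0.53 on 2LHet to 0.59 on 3RHet on the autosomal ones. In the whole-series list each of the 7 exceeded the X arm, the highest major arm in this share with 34.7%, while chromosome 4 had 58.5%. In the replicates' own lists the share of the 7 sequences in the top 25% was 68.6% in replicate 1 (24 of 35) and 46.0% in replicate 2 (185 of 402). For U alone it was 94.4% in replicate 1 and 60.5% in replicate 2. The 6 Het sequences together had 41.2% in replicate 1 (7 of 17) and 33.6% in replicate 2 (73 of 217). The X arm had 51.0% in replicate 1 and 41.4% in replicate 2, so in both replicates the pooled Het sequences lay below the X arm and U lay above it. The pool was mixed in replicate 2. There XHet with 8 of 8 and YHet with 3 of 4 lay above the X arm. The autosomal Het sequences lay below it, from 16.7% on 2LHet to 39.1% on 3RHet. Replicate 1 had no region on XHet or YHet.

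The difference from the arms was present at like widths. Among regions of 1301 to 2000 bp, 49.1% of 234 members and 1.87% of 3153 regions of the major arms were in the top 25%. Among those of 2000 to 3000 bp it was 67.6% of 105 members and 17.3% of 1761 regions of the arms. From 3000 bp up, 73.1% of 52 members and 54.7% of 3210 regions of the arms were in it. That class has no upper limit, and widths in it were not alike. It held 7 members and 1716 regions of the arms of 5000 bp or more. Under 1301 bp, 69.4% of 196 members and 7.12% of 1755 regions of the arms were in the top 25%. The members' share was the higher in each of the 4 width classes.

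The scores had a regular form. Raised from the log2 scale, 9635 of 10507 scores of the whole-series list (91.7%) equalled 1 constant, 0.886, times a ratio of 2 whole numbers with a denominator of at most 1000, within a relative tolerance of 1e-08. All 587 members had such a ratio. In the replicates' lists the constants were 0.743 in replicate 1 and 1.05 in replicate 2, with 94.7% of scores of that form in replicate 1 and 96.7% in replicate 2. A pair of whole numbers could thus be read from each of these scores. This was found after the values were seen, and the files do not say what the numbers count. The pair is in lowest terms, so the true numbers can be any multiple of it, as for a member of 1650 bp on XHet with a pair of 2 over 1 between neighbours with 81 over 38 and 94 over 41.

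In lowest terms, the pairs of members had smaller numbers than those of regions elsewhere. The median denominator was 42 among members and 203 on the major arms, where 9015 regions gave a ratio. The median numerator was 80 among members and 304 on the major arms. By sequence the median denominator was 97.5 on 3RHet, 59 on 3LHet, 46 on 2RHet, 41 on XHet, 32 on YHet, 27.5 on U and 8.5 on 2LHet. At like widths the difference remained. For regions of 1301 to 2000 bp the median denominator was 47.5 in members and 176 on the major arms, and for those of 2000 to 3000 bp it was 89 in members and 265 on the arms. Denominators of 10 or less were found in 139 members (23.7%), against a background of 3.53% of all whole-series regions. A denominator of 1 was found in 40 members (6.81%), against 0.504%, and these 40 were 75.5% of all regions with one.

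**Figure D4:**
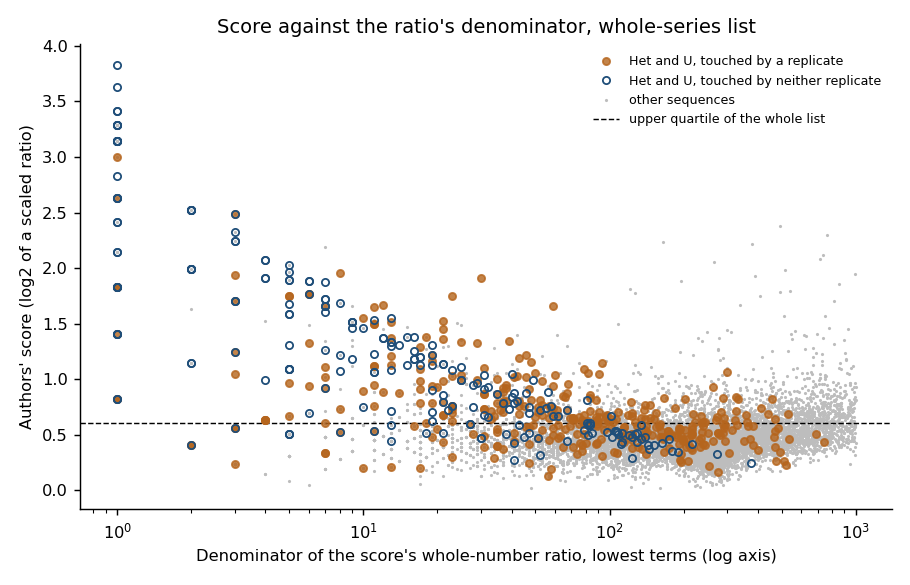
Authors' score of each whole-series region against the denominator, on a log axis, of the whole-number ratio behind it in lowest terms. Filled points are members touched by a replicate list, open points members touched by neither, grey dots regions elsewhere, and the dashed line is the upper quartile of the list. All scores of members above 3 belong to open points at a denominator of 1.

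The 4 highest scores of the list all belonged to members with a denominator of 1. The highest of all, 3.83 from 16 over 1, belonged to a region of 1982 bp on 3RHet at 1656407 to 1658388. The second, 3.63 from 14 over 1, belonged to 1191 bp on U at 9479265 to 9480455. The next 2 places on U shared the value 3.41, from 12 over 1, at 6747058 to 6748242 and 8190557 to 8191968. The score 3.29, from 11 over 1, was held by 3LHet at 678102 to 679137 and by U at 5131497 to 5132500, 6204748 to 6205768 and 7075837 to 7076837, and by 3 regions elsewhere. The score 3.15, from 10 over 1, was held by 8 members, among them 2RHet at 1013110 to 1015109 and 3RHet at 1586951 to 1587951, and 7 of these 8 were exactly 1001 bp wide. Neither replicate held any of these members.

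On the short sequences the highest score was 2.41 on YHet, from 6 over 1 at 324598 to 325598, and 1.60 on 2LHet, from 24 over 7 at 41438 to 42438. Neither replicate held these regions. On XHet it was 1.03, from 97 over 42 at 117977 to 119462, covered to 97.2% in replicate 2. Of the 40 highest-scoring regions of the whole list, 29 were members, 20 of them on U. All 29 had a denominator of 10 or less, all were at most 2000 bp wide, and 26 were touched by neither replicate.

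Scores were lower at larger denominators among members, but the denominator is part of the score, so the 2 are not independent. The median score was 2.63 for the 40 members with a denominator of 1, 1.51 for 99 with 2 to 10, 0.87 for 179 with 11 to 50, 0.64 for 95 with 51 to 100 and 0.51 for 174 above that. Outside the 7 sequences the 13 regions with a denominator of 1 had the same median, 2.63. All regions of this class, members or not, were in the top 25%, which follows from the form of the score. A pair of 2 over 1, the lowest in this class, already gives 0.83, above the upper quartile of the list, 0.61. The medians of the other 4 classes outside the 7 sequences were 0.48, 0.45, 0.44 and 0.45, each below that of the members. Members with more than 100 in the denominator were in the top 25% in 25.3% of cases, and regions elsewhere in 17.0%. With denominators of 11 to 50 it was 77.7% of members and 18.5% of regions elsewhere. Of the members, 303 (51.6%) had a score held by another region of the list to 9 decimals, against a background of 33.6%, and 158 shared it with another member.

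Support from the replicates was almost wholly from replicate 2. A member was counted as touched when at least 1 bp lay in a replicate's region. Both replicates touched 22 members (3.75%, exact Clopper-Pearson 95% interval 2.36% to 5.62%), against a background of 31.4% of all whole-series regions. Replicate 2 only touched 336 (57.2%, background 45.6%), replicate 1 only touched 12 (2.04%, background 4.81%), and neither touched 217 (37.0%, background 18.2%). Counted singly, replicate 1 touched 34 members (5.79%, background 36.2%) and replicate 2 touched 358 (61.0%, background 77.0%). These lists come from the same series and are not independent of each other.

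By sequence, members touched by both replicates numbered 7 of 106 on 3RHet, 3 of 94 on 3LHet, 2 of 72 on 2RHet and 10 of 288 on U. There were none among the 8 on 2LHet, the 11 on XHet and the 8 on YHet, counts so small that the exact 95% intervals reach 36.9% on 2LHet and YHet and 28.5% on XHet. The share touched by neither was 50.0% on 2LHet, 40.6% on U, 40.3% on 2RHet, 37.2% on 3LHet, 27.3% on XHet, 25.5% on 3RHet and 25.0% on YHet. On chromosome 4 it was 12.2%, and 48.8% of the regions there were touched by both replicates.

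Width classes separated the replicates. Replicate 2 touched 73.5% of members of 1301 to 2000 bp (exact 95% interval 67.4% to 79.0%) and 73.7% of such regions on the major arms. In the class of 2000 to 3000 bp it was 89.5% of members (82.0% to 94.7%) and 90.7% of regions on the arms, and from 3000 bp up all 52 members (93.2% to 100%) and 98.7% of regions on the arms. Replicate 1 touched 3.85% of members and 14.6% of regions on the arms in the first of these classes. It touched 13.3% of members and 39.1% of regions on the arms in the second, and 17.3% of members and 77.2% of regions on the arms in the third. The third class has no upper limit, and widths in it reached 6928 bp among members and 185752 bp on the arms. Below 1301 bp, narrower than either replicate list goes, replicate 2 touched 20.4% of members and 35.2% of regions on the arms. From 1301 bp up the arms' share for replicate 2 lay inside the members' interval in each class, and the arms' share for replicate 1 lay above it. Support also differed by the whole-number pairs: neither replicate touched 69.8% of the 139 members with a denominator of 10 or less, and 26.8% of the other 448. Outside the 7 sequences it was 37.1% of 232 such regions and 16.6% of the other 9688. Members with a denominator of 1 had a median width of 1052 bp, and those with 2 to 10 had 1191 bp. Both lie below 1301 bp, so denominator and width were not separated here.

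**Figure D5:**
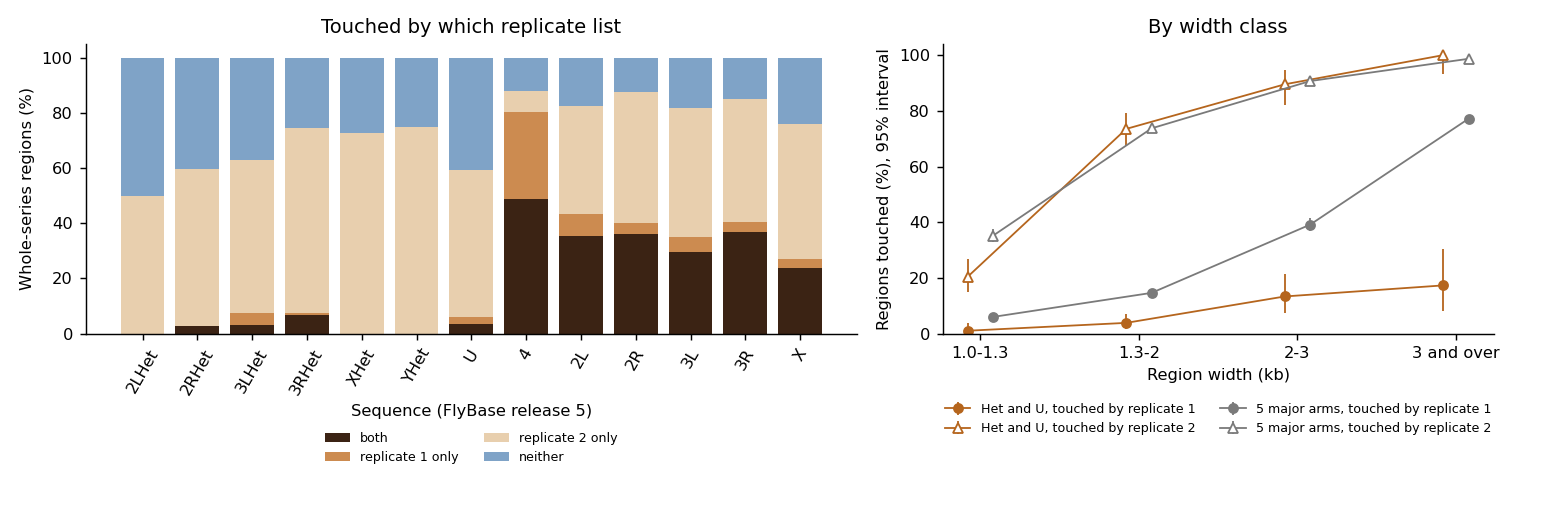
Left, share of whole-series regions of each sequence touched by both replicate lists, by 1 or by neither, in percent. Right, share touched by replicate 1 (filled circles) and by replicate 2 (open triangles) against width class in kb, for members and for the major arms, with exact 95% intervals. The triangles of members and arms lie together from 1301 bp up, while the circles of members stay at 17.3% or below.

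The share touched by neither replicate was higher at high scores on the 7 sequences and lower at high scores on the arms. In the top 25% of scores 44.2% of 360 members were touched by neither replicate, against 5.13% of 2243 regions on the major arms. In the lowest 25% it was 19.5% of 41 members and 25.4% of 2578 regions on the arms. The share of members touched by both replicates rested on few regions. It was 5.00% in the top 25% (18 of 360) and 1.61% between the top and lowest classes (3 of 186). In the lowest 25% it was 2.44%, which is 1 of 41, with an exact interval of 0.06% to 12.9%. No direction was therefore read from these shares. On the arms the share touched by both was 77.6% in the top 25%, 25.8% between and 8.11% in the lowest 25%. Members touched by neither had a median score of 1.08, a median width of 1138 bp and a median denominator of 13. Those touched by both had a median score of 0.79, a median width of 2745 bp and a median denominator of 90. Of the 217 members touched by neither, 154 (71.0%) fell below the smallest width of the replicate lists.

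Where a single region of replicate 2 touched a member, their ends lay close together. Among 353 such members the median distance was 90 bp between the starts and 94 bp between the ends, and 171 members lay wholly inside the region of replicate 2.

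Stretches covered in both replicates were few and short. There were 23, together 34880 bp, with a median of 1455 bp, and each lay within 1 member. Of these 11 were on U, 7 on 3RHet, 3 on 3LHet and 2 on 2RHet. The widest on U was 2935 bp at 6017229 to 6020163, next to a second of 1892 bp at 6015249 to 6017140 inside the same member. On 3LHet the widest was 1971 bp at 717095 to 719065, on 3RHet 1660 bp at 1386213 to 1387872 and on 2RHet 1405 bp at 701385 to 702789. The 7 stretches on 3RHet lay scattered between 21757 and 1408314, at 1410 to 1660 bp each. None was found on 2LHet, XHet or YHet.

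Seen from the replicates, the whole-series list took up most of their regions here. It touched 33 of the 35 regions of replicate 1 (94.3%) and 355 of the 402 of replicate 2 (88.3%). Elsewhere it touched 98.8% of the regions of replicate 1 and 93.7% of those of replicate 2. By length it held 80.1% of replicate 1 on the 7 sequences, against 98.0% elsewhere, and 82.9% of replicate 2, against 94.5% elsewhere. Of the 35 regions of replicate 1, 22 touched replicate 2 (62.9%, against 89.8% elsewhere), and of the 402 of replicate 2, 23 touched replicate 1 (5.72%, against 49.6% elsewhere).

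The only group in replicate 1 with more than 2 regions on these sequences lay on 3LHet. It was singled out after its values were seen. Its 5 regions, between 199222 and 227738, were 1402, 6561, 2550, 5994 and 3806 bp wide with scores of 0.76, 0.85, 0.78, 0.70 and 0.57 in replicate 1. Their pairs had denominators of 18, 312, 261, 521 and 326. Replicate 2 touched 1 of the 5, the whole-series list touched the first 4, and neither of these lists had the last. Of the 23708 bp that replicate 1 covered on 3LHet in 7 regions, 54.9% lay in the whole-series list.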

How the data were processed

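H3K27me3 ChIP-seq of wild-type Drosophila melanogaster head nuclei was analysed from 3 deposited lists of enriched regions, 1 for the series and 1 for each of 2 ChIP replicates. The submitters' processing notes list Bowtie 0.12.7, an aligner, and coordinates follow FlyBase release 5, per the file headers. The peak caller, its threshold, the read depths and whether the series list pools or merges the libraries are not given in the sources used. Each region carries a score deposited by the authors, whose scale is not stated, so scores were compared only within a list. Start and end positions are other deposited values, per the file headers, as are sequence lengths. One rule took all regions on 2LHet, 2RHet, 3LHet, 3RHet, XHet, YHet and U. The members, lists and measures were chosen with earlier results of these data known.

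Computed here with Python 3.11.15, numpy 2.4.6, pandas 2.3.3, scipy 1.17.1 and matplotlib 3.10.9 were regions per Mb, share of length covered, widths, gaps, groups (gaps under 5000 bp) and overlap of at least 1 bp between lists. Ratios behind the scores were sought with a tolerance of 1e-08 and denominators up to 1000, a step chosen after the values were seen. Shares have exact Clopper-Pearson 95% intervals that cover counting error only. The scripts were tested on simulated data. Named regions are, on each sequence, the widest member, the member with the highest score and the widest stretch in both replicates, and over all sequences the 10 highest scores, the 10 widest members and the 3 largest groups, where ties at the limit were kept or counted. A region called depleted, 1 in replicate 2, was left out. The gene table at hand is of release 6, so genes were not assigned. No test was run, as a design of 2 libraries allows none below p = 0.5 in an exact two-sided sign-flip test. Alternatives tried were score and width minimums, joining, other gaps, a 50% cover minimum, omission of U and of each replicate, and others added after seeing the data.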

Additional observations from a re-analysis of the deposited data

How the results depend on the processing

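Of 42 alternative values for 7 results, 24 moved by less than the spread between replicates or the interval and 18 moved by more. These results are sizes and shares without a sign, so no change of direction was scored. The spread was wide for density, 16.9 to 43.8 regions per Mb, and for cover, 2.59% to 8.24%. A value that stayed within it says little. Leaving out each replicate in turn gave 1.81 to 20.8 regions per Mb, 0.388% to 4.39% of length covered, a median width of 1602 to 1866.5 bp and 25.7% to 38.3% of regions in groups, the low density and cover coming from the list of replicate 1 alone. Keeping only regions at least 1301 bp wide gave a median width of 1908 bp, 36.1% in groups, 5.63% touched by both replicates, 16.1% touched by neither and 54.5% in the top 25% of scores, ranked anew among regions of that width. At the same width limit 38.5% of all whole-series regions were touched by both and 8.41% by neither. Without U, 48.5% were in groups and 46.2% in the top 25%. The share in groups was 35.6% with scores at or above the median, 17.7% with gaps under 1000 bp and 60.1% with gaps under 10000 bp. With a 50% cover minimum, 2.21% were touched by both replicates. In alternatives chosen after seeing the data, 80.5% were in the top 25% when ranked among regions under 2000 bp, and without denominators of 10 or less 53.6% were in it and 26.8% were touched by neither replicate. The cause of each shift was not tested beyond what the setting itself removes. No paired analysis was possible because the ChIP replicates form 1 group and the inputs have no list here. Depth is unknown, so a region missing from a list was not called there and is not shown to lack the mark.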

Other observations

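The file headers also give a length of 29.0 Mb for Uextra, a further set of unplaced sequence, on which none of the 3 lists had a region (0 in all).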
